A study of Mus musculus with 6 samples.

Results

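AP-1 is a family of dimeric transcription factors, and 7 of its genes were followed here in regenerating mouse liver: the Jun genes Jun, Junb and Jund, the Fos genes Fos, Fosb and Fosl2, and Atf3, a related factor that pairs with Jun proteins. They were taken as a named family, through every probe set that the platform annotation pairs with 1 of these genes and no other. This gave 10 probe sets of 45101 on the array, 2 each for Jun, Jund and Fosl2 and 1 each for the other genes. The values are log2 signals made with GCRMA, a method that subtracts a background predicted from probe sequence. A probe set was tested where its value exceeded 4 in at least 3 of the 6 arrays, which 5 of the 10 probe sets and 4 of the 7 genes did.

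Jun proteins can pair with each other or with Fos and Atf3 proteins, while Fos proteins need a Jun partner to bind DNA. The dimers bind a short site called TRE, and some of them bind the cAMP response element, CRE. The kinase JNK phosphorylates Jun, and ERK signalling acts on the Fos proteins. Jun and Fos transcripts are textbook early response genes of the liver after partial hepatectomy, and in mice Jun is needed in hepatocytes for normal regeneration.

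The Cre plus livers (3 arrays, A, B and C) came from C57BL/6 mice that were Socs3 fl/fl and Alb-Cre+, so that the albumin promoter drives Cre in hepatocytes and removes Socs3 there. The Cre minus livers (3 arrays, A, B and C) came from littermates that were Socs3 fl/fl and Alb-Cre-. Every mouse had a 2/3 partial hepatectomy, and total RNA of whole liver was taken 18 hours later. Values of a group are given in the order A, B and C. Ages, and whether each array stands for a separate mouse, are not given in the sources used here, so p-values measure the spread between these arrays, which may be partly technical. There is no array from before surgery and no Cre-bearing control with intact Socs3, so a difference that was there before surgery, or one made by Cre itself, cannot be told apart from the loss of Socs3. Socs3 was not measured by cell type.

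Socs3, a feedback inhibitor of JAK and STAT3 signalling, was lower in Cre plus on its 2 probe sets that passed the filter. On the brighter it averaged 7.20 ± 0.44 in Cre plus and 9.21 ± 0.11 in Cre minus (log2, SD, n = 3 each). Its remaining probe set was under the filter. Correlations between arrays over the 8554 genes tested ran from 0.982 to 0.995, and array medians from 2.98 to 3.02. Cre plus B correlated with Cre minus arrays at 0.991 to 0.993 and with Cre plus A and C at 0.989 and 0.987. All 10 hepatocyte markers looked at passed the filter. Arrays have no read depth, and their number limits the precision.

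The 3 Jun genes and Fosl2 were detected in both genotypes, and each had higher values in the Cre plus livers, with no overlap between the genotypes. Jun and Junb differed by 1.82-fold and 1.74-fold, Jund by 1.37-fold and Fosl2 by 1.23-fold. Fos, Fosb and Atf3 stayed under the filter in all 6 arrays. In RNA of whole liver, a change in the number of cells of a type and a change in RNA per cell cannot be told apart. None of the 4 detected genes passed limma's adjusted p under 0.05 over all 8554 genes, where 0.0234% of genes passed (Tifa and Steap4). Of the 4, 3 (Jun, Junb and Jund) were higher with an unadjusted p under 0.05, beside 6.62% of all genes. With every Cre plus array above every Cre minus array there were 4 of 4, beside 9.21% of all genes, and the 4 were those that passed the filter, not the whole family. The members were also chosen with earlier results of these data known. These counts, and those of the member probe sets below, are thus a description and not a test.

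**Figure D1:**
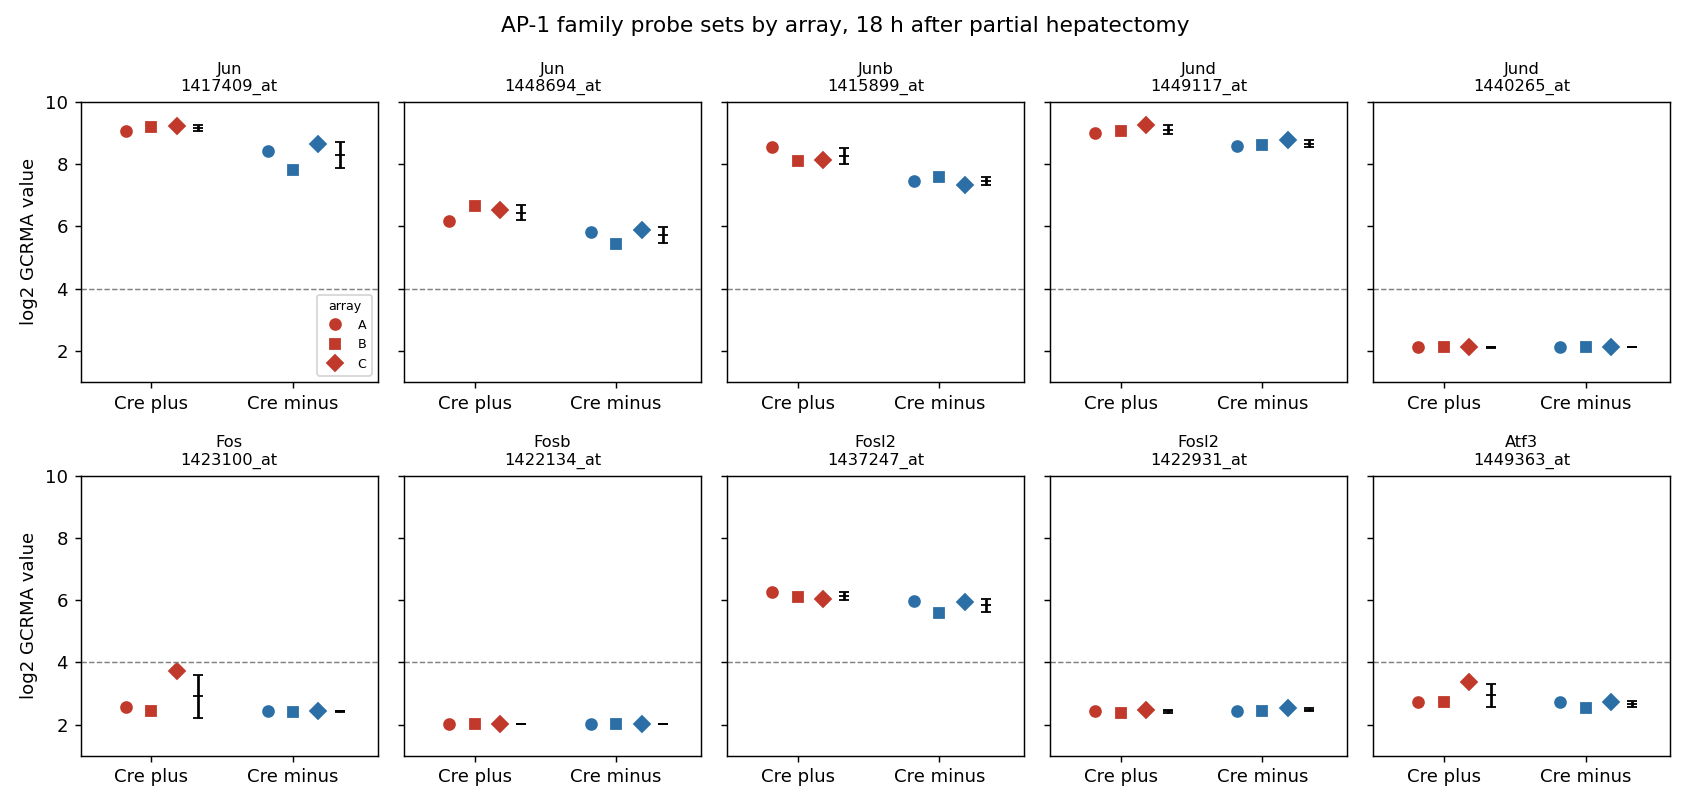
Log2 GCRMA value (vertical axis) of the 10 AP-1 probe sets in the 3 Cre plus and 3 Cre minus livers, with circles, squares and diamonds for arrays A, B and C, the mean ± SD as a bar (n = 3) and the filter at 4 as a dashed line. Jun, Junb, one Jund and one Fosl2 probe set lie above the line with Cre plus higher, while Fos, Fosb and Atf3 lie below it.

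Jun, the founding member of the family, was read by 2 probe sets, and both were higher in Cre plus. On the brighter one (1417409_at) its log2 values were 9.05, 9.18 and 9.22 in Cre plus, against 8.42, 7.83 and 8.63 in Cre minus. The Cre plus arrays lay close together and the Cre minus arrays were spread, with B lowest, so that the SD was 0.09 in Cre plus and 0.42 in Cre minus. The log2 fold change was 0.86 ± 0.21 (SE, 95% interval 0.35 to 1.37), with limma's adjusted p = 0.188. The smallest gap between the groups was 0.42, from Cre minus C to Cre plus A. On the dimmer probe set (1448694_at) the values were 6.16, 6.65 and 6.51 in Cre plus, against 5.82, 5.42 and 5.89 in Cre minus. Here too Cre minus B was lowest and the groups did not overlap. Its log2 fold change was 0.73 ± 0.18, with limma's adjusted p = 0.228 over the 15563 probe sets kept. Both Jun probe sets read the same RNA extracts, so the second is no separate replicate. Without Cre minus B, the Jun log2 fold change on the brighter probe set was 0.63.

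Junb, which in mice and humans is also a response gene of IL-6 and STAT3, had the smallest p of the family. Its log2 values were 8.55, 8.09 and 8.14 in Cre plus, against 7.46, 7.59 and 7.34 in Cre minus. Cre plus A stood above the other Cre plus livers, and Cre minus B, the lowest Cre minus liver for Jun, was the highest for Junb. The means were 8.26 ± 0.25 in Cre plus and 7.47 ± 0.13 in Cre minus (SD, n = 3 each). The log2 fold change was 0.80 ± 0.14 (SE, 95% interval 0.45 to 1.14), with limma's adjusted p = 0.120. By unadjusted p it stood at place 98 of 8554 genes. Without Cre plus A the difference was 0.65, and without Cre plus B it was 0.88.

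Jund, a Jun protein that is present in many resting cells, had a smaller difference with less spread. Its log2 values on 1449117_at were 8.99, 9.06 and 9.27 in Cre plus, against 8.58, 8.60 and 8.78 in Cre minus. In each genotype array C was highest, and the lowest Cre plus liver lay 0.21 above the highest Cre minus liver. The log2 fold change was 0.45 ± 0.10 (SE, 95% interval 0.21 to 0.69), with limma's adjusted p = 0.169. The other Jund probe set (1440265_at) lay between 2.11 and 2.13 in all 6 arrays, under the filter, and carries no information on the direction.

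Fosl2, also called Fra-2, was the Fos gene that was detected. On 1437247_at its log2 values were 6.26, 6.09 and 6.03 in Cre plus, against 5.96, 5.58 and 5.94 in Cre minus. The groups did not overlap, but the gap between Cre plus C and Cre minus A was 0.07, and Cre minus B again was the lowest array. The log2 fold change was 0.30 ± 0.13 (SE), and its 95% interval of -0.01 to 0.61 included 0. Limma's adjusted p was 0.346. Without Cre minus B the difference was 0.18. The second Fosl2 probe set (1422931_at) lay under the filter, between 2.38 and 2.46 in Cre plus and between 2.44 and 2.53 in Cre minus.

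**Figure D2:**
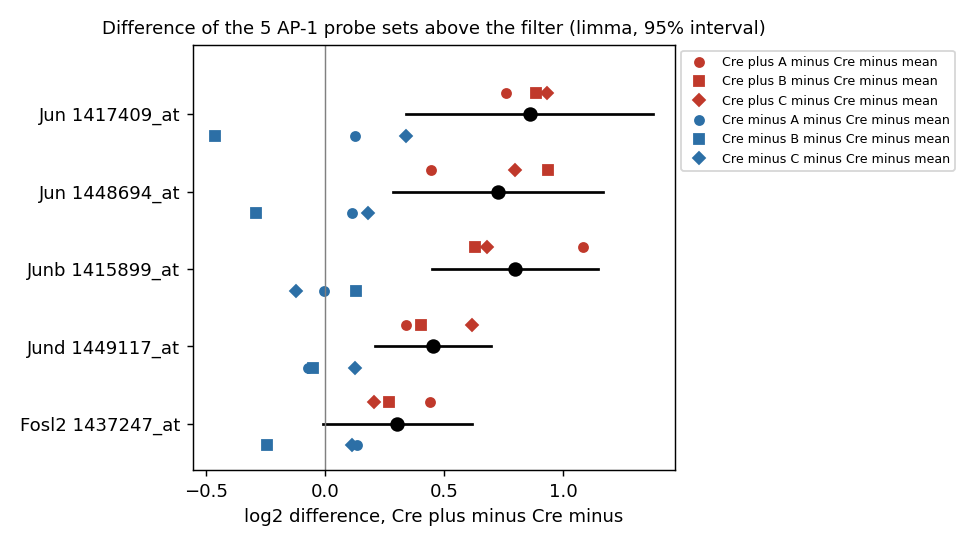
Log2 difference from the Cre minus mean (horizontal axis) for the 5 AP-1 probe sets above the filter, with the limma estimate and 95% interval in black, Cre plus arrays in red above it and Cre minus arrays in blue under it (circle A, square B, diamond C). Every red point lies right of every blue point on its line, and the Fosl2 interval reaches from -0.01 to 0.62 in the fit over probe sets.

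Of the 5 probe sets kept, 4 had an unadjusted p under 0.05 with Cre plus higher, beside 6.12% of the 15563 probe sets. All 5 had groups that did not overlap, beside 8.78%. None passed an adjusted p under 0.05, beside 0.0129%. An exact permutation test over the arrays gave p = 0.1 for each of the 5, two-sided, the smallest that 3 against 3 arrays can give.

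Fos, the partner that forms the classical AP-1 dimer with Jun, was under the filter in every array. Its log2 values were 2.56, 2.44 and 3.71 in Cre plus, against 2.44, 2.41 and 2.44 in Cre minus. Cre plus C alone stood out, and the other 5 arrays lay between 2.41 and 2.56. Atf3, a stress-induced member, had 2.72, 2.73 and 3.37 in Cre plus, against 2.74, 2.55 and 2.72 in Cre minus. Here too Cre plus C was the highest array, and the other Cre plus arrays lay within the range of Cre minus. Fosb, a Fos protein best known from neurons, lay between 2.01 and 2.02 in all 6 arrays. A value this near the bottom of the GCRMA scale shows that the probe set gave little signal over background at 18 hours, not that the RNA was absent, and fold changes there are compressed, so none is given.

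Part of the early response of Jun, Fos and Atf3 runs through sites close to their start. Their promoters and that of Junb are shown, and those of Jund, Fosb and Fosl2 were searched in the same way. The sequences are from RefSeq (GRCm38.p6), which had an entry for all 7 genes, and each runs 5′ to 3′ from 250 bases before the gene's start to 50 bases after it. Capitals mark matches to the motifs searched on both strands: the TRE motif TGANTCA, the CRE core ACGTCA, the CRE-like octamer TGACNTCA and the STAT motif TTCNNNGAA. The CRE core can lie inside the octamer, but no match in these windows overlapped another. The motifs were picked with the sequences in view.
Jun, chr4:95052173-95052472, minus strand: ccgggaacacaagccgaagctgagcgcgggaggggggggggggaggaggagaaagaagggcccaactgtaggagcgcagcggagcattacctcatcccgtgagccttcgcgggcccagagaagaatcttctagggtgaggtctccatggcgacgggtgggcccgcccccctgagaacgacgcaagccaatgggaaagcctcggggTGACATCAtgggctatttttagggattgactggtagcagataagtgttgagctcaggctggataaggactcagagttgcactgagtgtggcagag
Junb, chr8:84978699-84978998, minus strand: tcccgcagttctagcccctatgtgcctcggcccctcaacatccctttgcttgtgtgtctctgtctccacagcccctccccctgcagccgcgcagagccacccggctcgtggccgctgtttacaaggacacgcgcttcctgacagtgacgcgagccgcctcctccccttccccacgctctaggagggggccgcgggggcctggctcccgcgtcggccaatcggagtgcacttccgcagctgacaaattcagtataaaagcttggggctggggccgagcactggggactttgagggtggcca
Fos, chr12:85473640-85473939, plus strand: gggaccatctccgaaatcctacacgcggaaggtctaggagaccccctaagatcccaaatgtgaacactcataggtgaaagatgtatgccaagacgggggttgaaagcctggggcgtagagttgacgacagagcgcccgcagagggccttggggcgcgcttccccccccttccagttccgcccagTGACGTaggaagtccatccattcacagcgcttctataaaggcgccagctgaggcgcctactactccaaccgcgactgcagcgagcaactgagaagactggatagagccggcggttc
Atf3, chr1:191183284-191183583, minus strand: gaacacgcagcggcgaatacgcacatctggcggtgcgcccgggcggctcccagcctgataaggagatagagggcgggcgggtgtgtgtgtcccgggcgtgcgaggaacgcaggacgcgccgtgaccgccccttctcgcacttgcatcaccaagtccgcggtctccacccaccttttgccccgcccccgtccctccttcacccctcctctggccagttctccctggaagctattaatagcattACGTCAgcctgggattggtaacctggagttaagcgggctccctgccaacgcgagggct

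The Jun window held 1 match, TGACATCA, which begins at position -45 relative to the start. These letters are known from the human JUN promoter as a site through which Jun acts on its own gene. The Fos window held a CRE core, TGACGT on the strand shown, at position -66, and the Atf3 window held ACGTCA at position -8. Junb, Jund, Fosb and Fosl2 had 0 matches to the 4 motifs in their windows. A site whose letters depart from these patterns would not be marked, so a window without a match can still hold a site. Of all 32851 promoter windows of this length, 7.81% held the TRE motif, 7.51% the CRE core, 8.83% the octamer and 8.30% the STAT motif. A match is a run of letters and not a measured site, and sites further from the start lie outside the window. Jun, whose window has the octamer, had a log2 fold change of 0.86 in these livers. Junb, Jund and Fosl2, whose windows have no match, had 0.80, 0.45 and 0.30. Whether a match bears on the fold change was not tested.

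Relative to the Cre minus mean, the median shift of the 4 detected genes was 0.60, 0.52 and 0.65 in the Cre plus arrays A, B and C, while the median over all genes tested was between -0.0284 and -0.00477 in the same arrays. In the Cre minus arrays the median of the 4 was 0.06 in A, -0.15 in B and 0.12 in C. Cre plus B, the array most like Cre minus over all genes, had the lowest of the 3 median shifts, and all 4 lay above the Cre minus maximum in it as in A and C. Among all genes, 32.2%, 27.6% and 26.9% lay above that maximum in the A, B and C arrays of Cre plus. The median log2 fold change was 0.62 over the 4 genes and -0.01 over all genes, of which 46.5% were higher in Cre plus. Jun and Fosl2 had the larger SD in Cre minus and Junb and Jund in Cre plus, where 63.1% of all genes had it.

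**Figure D3:**
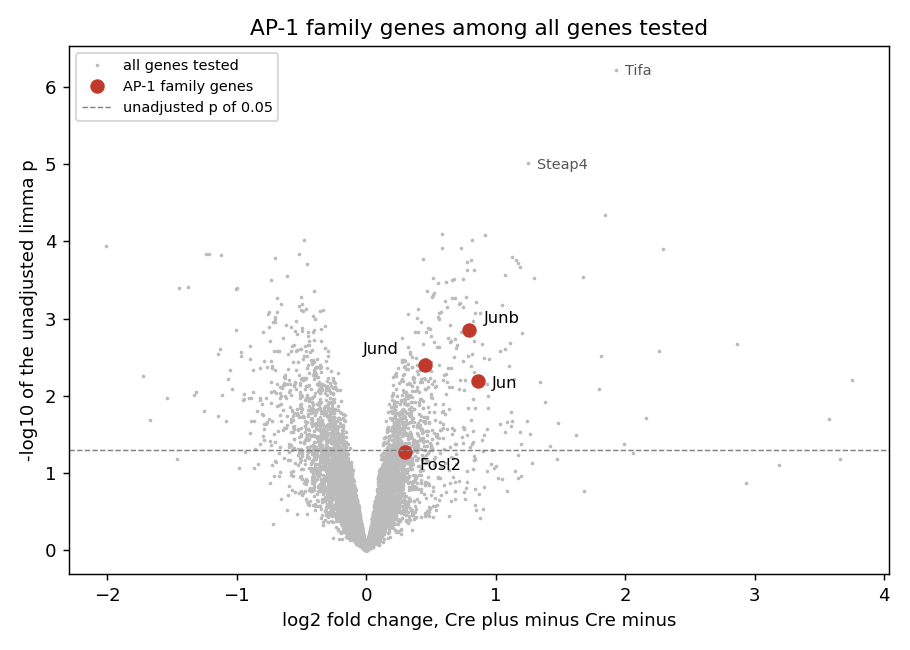
Log2 fold change, Cre plus minus Cre minus (horizontal axis), against -log10 of the unadjusted limma p (vertical axis) for all 8554 genes tested in grey, with the 4 detected AP-1 genes in red, and Tifa and Steap4, which passed an adjusted p under 0.05, named. Jun, Junb and Jund lie above the dashed line at an unadjusted p of 0.05 and Fosl2 just under it, among many other genes on the higher side.

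Genes that share the array pattern of each detected member were ranked by Pearson's r over the 6 arrays, among genes whose values spanned at least 1 log2 unit. The r is a measure of likeness only, since the 6 points share the genotype contrast and no test was made. Junb was most like Cxcl1, a neutrophil chemokine, with r = 0.990. Cxcl1 had log2 values of 12.46, 11.89 and 11.70 in Cre plus, against 10.99, 11.10 and 10.75 in Cre minus, and like Junb it was highest in Cre plus A. Bmper, a secreted BMP regulator (0.984), and Acvr1b, an activin receptor (0.984), came next for Junb, and 14 genes of 611 had an r above 0.95. Jun was most like Ablim1, an actin-binding protein (0.967), Inka1 (0.947) and the stress-response kinase Plk3 (0.941), all lowest in Cre minus B. Jund was most like Itpkc, an inositol trisphosphate kinase (0.989), Tacc2 (0.977) and the corepressor Tle3 (0.968). Fosl2 was most like the endocytic adaptor Hip1r (0.980), Phip (0.955) and Ccdc88a (0.938). No gene was among the 3 nearest of more than 1 member.

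The other bZIP factors share the leucine zipper through which AP-1 proteins pair. Of 20 with a probe set naming 1 gene, 12 passed the filter, 9 with higher and 3 with lower values in Cre plus and a median log2 fold change of 0.05. An unadjusted p under 0.05 was reached by 2 higher and 0 lower genes, and limma's adjusted p under 0.05 by 0. Over all genes tested, 6.62% were higher and 8.21% lower in Cre plus at an unadjusted p under 0.05, and the counts of this list and of those that follow are to be read beside these shares. The 2 were Nfil3, a repressor of the bZIP class, at 0.18 ± 0.05, and Atf2, a JNK and p38 substrate that pairs with Jun, at 0.21 ± 0.06. The Atf2 log2 values were 9.14, 9.18 and 9.06 in Cre plus, against 8.86, 8.97 and 8.91 in Cre minus, without overlap. Creb1 followed at 0.16 ± 0.08 with overlapping groups. Of the 12, 2 were higher and 2 lower without overlap, beside 9.21% and 11.9% of all genes. Fosl1, the remaining Fos gene, was under the filter, as were Batf2, Batf3, Jdp2, Atf7, Creb5, Maff and Mafk.

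The kinases above AP-1 were read at the transcript level. Of 14 tested kinases of the JNK, p38 and ERK cascades, 10 were higher and 4 lower in value, with a median of 0.07. An unadjusted p under 0.05 was reached by 1 higher and 0 lower genes, and limma's adjusted threshold by 0. Mapkapk2, a kinase under p38, had 0.25 ± 0.10, Rps6ka3, a kinase under ERK, 0.48 ± 0.21, and Mapk9, which encodes JNK2, -0.18 ± 0.09 on the log2 scale. All 3 had overlapping groups. Map2k4 and Map3k2, kinases of these cascades named because their groups did not overlap, had 0.07 ± 0.05 and 0.12 ± 0.07, with limma's adjusted p = 0.599 and 0.453. Every Cre plus array was the higher one in 9.21% of all genes, beside these 2 of 14. Without overlap, 0 of the 14 were lower, beside 11.9% of all genes. Arrays measure RNA and not phosphorylation, so kinase activity was not measured.

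The list of brakes on these kinases holds Dusp phosphatases and the Spry and Spred inhibitors. Dusp6, which acts on ERK, was lower in every Cre plus liver, with log2 values of 8.66, 8.74 and 8.10 in Cre plus, against 9.42, 9.11 and 8.97 in Cre minus. Its log2 fold change was -0.67 ± 0.20, with limma's adjusted p = 0.249. Dusp16 and Dusp10, both phosphatases of JNK and p38, were higher in every Cre plus liver. Dusp16 had 8.92, 8.19 and 8.38 in Cre plus against 7.97, 7.76 and 8.04 in Cre minus, a log2 fold change of 0.58 ± 0.20 (adjusted p = 0.279 by limma). Dusp10 had 5.41, 4.51 and 5.27 in Cre plus against 4.49, 4.36 and 4.35 in Cre minus, a log2 fold change of 0.67 ± 0.24 (adjusted p = 0.290 by limma). In both, Cre plus B was the lowest Cre plus array and the nearest to Cre minus. Of the 6 genes of this list that were tested, 5 had higher values and 1 a lower value, with a median of 0.23. The unadjusted threshold was met by 2 higher genes and 1 lower gene, limma's adjusted one by 0. Another 8, among them Dusp2, Dusp4, Dusp5 and Spry1, were under the filter.

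Among 8 tested factors that act on the Fos and Jun promoters, 6 were higher and 2 lower in value, with a median of 0.11. The unadjusted threshold was met by 2 higher and 0 lower genes, limma's adjusted one by 0. Stat3 had 11.16, 11.22 and 11.39 in Cre plus, against 10.74, 10.75 and 10.71 in Cre minus. The groups were well apart, and limma's adjusted p was 0.0918. Sp1 had 0.47 ± 0.18 and Srf, the serum response factor that drives Fos, 0.11 ± 0.07, both with overlapping groups. Of 11 tested regulators of AP-1 stability or activity, 8 were higher and 3 lower in value with a median of 0.07, and 0 met the unadjusted or limma's adjusted threshold in either direction. The coactivator Ncoa1 had 0.22 ± 0.11, menin (Men1), which binds and restrains Jund, -0.22 ± 0.11, and Gsk3b, which phosphorylates Jun and favours its breakdown, 0.25 ± 0.19.

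Textbook AP-1 target genes were read as a list in the same way. Of 27 with a probe set, 15 passed the filter, 12 with higher and 3 with lower values and a median of 0.19. The unadjusted threshold was met by 4 higher genes and 1 lower gene of the 15, beside 6.62% higher and 8.21% lower of all genes, and limma's adjusted one by 0. Ccnd1, the cyclin D1 gene through which Jun promotes entry into the cell cycle, was the lower one. Its log2 values were 8.16, 8.58 and 8.29 in Cre plus, against 8.96, 8.89 and 9.19 in Cre minus, while the 4 detected AP-1 genes were higher. The activity of the AP-1 proteins was not measured. The log2 fold change of Ccnd1 was -0.67 ± 0.14, with limma's adjusted p = 0.146. Krt18, a keratin of hepatocytes, had 13.04, 12.89 and 13.34 in Cre plus against 12.64, 12.59 and 12.45 in Cre minus, a log2 fold change of 0.53 ± 0.13. The adhesion molecule Icam1 had 8.12, 8.08 and 7.80 in Cre plus against 7.37, 7.55 and 7.64 in Cre minus, a log2 fold change of 0.48 ± 0.12. Limma's adjusted p was 0.188 for both. Of the 15, 5 were higher and 2 lower without overlap, beside 9.21% and 11.9% of all genes. The matrix metalloproteinases Mmp2, Mmp3, Mmp9, Mmp12 and Mmp13, the urokinase gene Plau and its receptor Plaur were under the filter, with Il6, Ccl2, Cdk1, Hbegf and Tgfb1. Timp1, an inhibitor of metalloproteinases chosen after its values were seen, had the largest difference of the 15, 1.17 ± 0.50, with 6.80, 4.78 and 6.03 in Cre plus against 4.57, 4.57 and 4.95 in Cre minus. Cre plus B lay within the Cre minus range, and limma's adjusted p was 0.352.

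**Figure D4:**
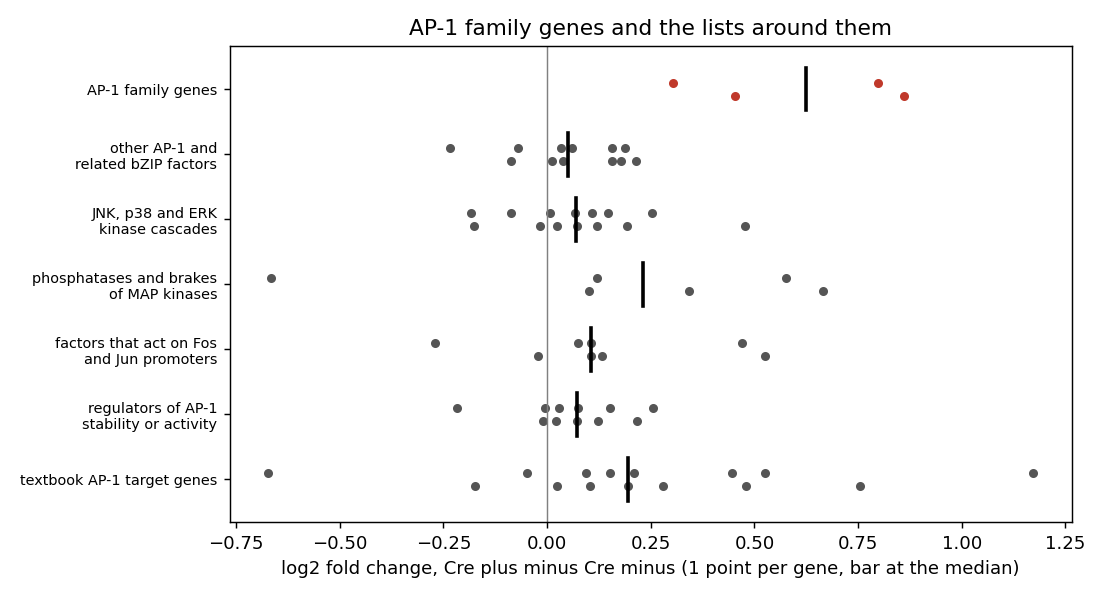
Log2 fold change, Cre plus minus Cre minus (horizontal axis), of each tested gene in the AP-1 family (red, 4 genes) and in 6 lists around it (grey), with a black bar at each median. The AP-1 genes lie between 0.30 and 0.86 with a median of 0.62, and the medians of the other lists between 0.05 and 0.23. Single genes of the other lists reach from -0.67 (Ccnd1) to 1.17 (Timp1).

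The AP-1 genes are expressed in many liver cell types, so markers of these were read beside them. All 12 tested markers of Kupffer cells and macrophages were lower in Cre plus, 8 of them without overlap, beside 11.9% of all genes with every Cre plus array below every Cre minus array. At an unadjusted p under 0.05 there were 8, beside 8.21% of all genes, and limma's adjusted p under 0.05 was met by 0. Timd4 was under the filter. The log2 of their summed linear values ran from 11.67 to 11.97 in Cre plus and from 12.14 to 12.27 in Cre minus. Of 9 tested sinusoidal endothelial markers 8 were lower in Cre plus, with sums of 10.94 to 11.25 in Cre plus and 11.25 to 11.46 in Cre minus. Of 10 stellate cell and fibroblast markers 6 were higher, 1 of them without overlap, with sums of 11.58 to 11.84 in Cre plus and 11.52 to 11.61 in Cre minus. Of 10 hepatocyte markers 2 were higher, with sums of 17.66 to 17.79 in Cre plus and 17.73 to 17.79 in Cre minus. Another 2 hepatocyte markers were lower without overlap. The neutrophil markers S100a8 and S100a9 passed the filter and summed to 8.94 to 10.72 in Cre plus, highest in A, and to 9.16 to 9.24 in Cre minus. The other 7 neutrophil markers with a probe set, among them Mpo and Elane, all 8 lymphocyte markers and 5 of 6 cholangiocyte markers were under the filter. Sox9, the remaining cholangiocyte marker, ran from 5.94 to 6.70 in Cre plus and from 5.60 to 5.95 in Cre minus. The part of these cell types in the AP-1 values was not tested.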

How the data were processed

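Total RNA (2 ug per array) was hybridized to Mouse Genome 430 2.0 arrays, per the labels. The deposited values are log2 signals from GCRMA, per the submitters' processing notes, which give no version here, and ran from 0.877 to 15.7. Gene symbols came from the platform annotation, checked through Entrez ID against RefSeq (GRCm38.p6, 0 symbols changed), and 34945 probe sets named 1 gene. The 64 control probe sets were left out. The filter asked for a value above 4 in 3 or more of the 6 arrays and kept 15563 probe sets, and a gene was read from its brightest kept probe set naming 1 gene (8554 genes).

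The genotypes were compared in limma 3.58.1 under R 4.3.3 (lmFit and eBayes, no block, two-sided, Benjamini-Hochberg over all genes), and again over all kept probe sets. The fits were tested on simulated data. A log2 fold change is the Cre plus mean less the Cre minus mean, and its SE is limma's. The members, gene lists and motifs were chosen with earlier results of these data known. In each list around AP-1 the text names the 3 tested genes with the smallest p, with any exception said, cell type markers are given as list summaries, and for each member the 3 genes most like it. Listed genes with no probe set naming 1 gene were not analysed here. The alternatives covered normalization, filters, the variance prior, probe set choice, a replicate block, array weights, a linear model with no moderation and each array left out.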

Additional observations from a re-analysis of the deposited data

How the results depend on the processing

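The 16 alternatives were 2 normalizations, 2 filters, 2 other variance settings, 2 probe set choices, the replicate block, array weights and 6 arrays left out in turn. In all of them the 4 detected AP-1 genes kept a higher value in Cre plus, and 0 passed an adjusted p under 0.05. The direction was largely fixed beforehand. The filters, variance settings and replicate block left these fold changes as they were. As the groups did not overlap, leaving out or reweighting an array cannot reverse a direction. The lowest limma adjusted p of each gene came with the filter raised to 6, where 6236 genes were tested. It was 0.0597 for Junb, 0.108 for Jund, 0.110 for Jun and 0.276 for Fosl2. Fosl2 passed that filter only through its Cre plus arrays, at 6.26, 6.09 and 6.03, since all its Cre minus arrays were under 6. The log2 fold change ran from 0.63 to 1.03 for Jun, 0.65 to 0.88 for Junb, 0.37 to 0.51 for Jund and 0.18 to 0.37 for Fosl2, with both ends of each range from an array left out. The number higher at an unadjusted p under 0.05 was 3 as in the main test or 4, with Fosl2 added, under the filter over 6, under the replicate block and without Cre minus A. Under the filter over 6, Fosl2 was kept by the group where it is high, so its entry there is no support. The median over the members, 0.62, ran from 0.53 (without Cre minus B) to 0.66 (without Cre plus B) where the 4 genes were tested. With no filter it was 0.45, since Fos, Fosb and Atf3 then enter with fold changes compressed near background. That value is no estimate for the whole family. With the replicate letter as a block, 0 of 8554 genes passed, against 2 without it. Each letter has an array of each genotype, so the block cannot change a fold change, and the median stayed at 0.62. Over all genes, 56 passed with the filter at 6, 3 with the mean of all probe sets, 0 with no filter, 0 with no moderation, and 0 to 13 with an array left out. Same-letter deviations correlated at -0.15, -0.10 and 0.02 for A, B and C, and the labels do not say that the letters mark a shared litter or day, so the samples were not treated as pairs. With 3 arrays a group, Fos, Fosb and Atf3 cannot be compared near background.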
